A study of Rattus norvegicus with 3 samples.

Results

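Cells of the cochlear duct epithelium were taken from single-cell RNA libraries of the rat cochlea, made on days 1, 7 and 14 after birth and called P1, P7 and P14 here. A cell was counted as epithelial when it held at least 1 UMI (unique molecular identifier, 1 captured RNA molecule) of Epcam, when Epyc, Tectb, Tecta, Otoa, Cdh1, Krt18, Esrp1 and Epcam together gave at least 3 UMIs and at least 15 per 10000 UMIs of the cell, and when at most 2 of the hair cell genes Pou4f3, Otof, Atoh1, Slc17a8 and Myo7a were found. This rule took 451 of the 30641 cells kept from 34927 barcodes. There were 224 epithelial cells of 12779 at P1, 195 of 12581 at P7 and 32 of 5281 at P14.

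The rats were untreated Sprague-Dawley animals, and the tissue of the rats of a stage was pooled into 1 library. The sample labels name the cell type as greater epithelial ridge, whereas the study's methods describe the whole dissociated basal membrane of the cochlea, with the spiral ganglion, spiral ligament and stria vascularis taken off by dissection. With 1 library for each age no difference between ages was tested, and a difference of age cannot be told apart from one of library. Levels are in CPM, the UMIs of a gene summed over cells per 1000000 UMIs of those cells. The range after a value is its 95% interval, an exact Poisson interval for a level and a Clopper-Pearson interval for a share of cells, and both kinds cover counting error only.

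The cochlear duct is a closed epithelial tube filled with endolymph, a fluid rich in potassium. Its floor carries the organ of Corti, in which supporting cells surround the hair cells, and the greater epithelial ridge, a tall transient epithelium on the inner side that secretes much of the tectorial membrane and is later remodelled into the inner sulcus. Interdental cells anchor the tectorial membrane, and the roof and the lateral wall hold nonsensory and ion-transporting cells.

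Epithelial cells held a median of 8145 UMIs at P1, 8006 at P7 and 3545 at P14, against 6548, 6868 and 1610 in all other cells. Summed over epithelial cells this came to 2056323, 1802574 and 124263 UMIs, so that 3 UMIs, the limit taken for a count of 0, stand for 1.46, 1.66 and 24.1 CPM. The median mitochondrial share was 7.73%, 8.70% and 6.66% in epithelial cells and 6.76%, 8.51% and 3.74% in the others. Doublets were not removed. Scrublet, a doublet caller, marked 11 epithelial cells at P1 and 7 at P7, 4.91% and 3.59% against 4.87% and 6.16% of all kept cells, and did not work at P14, where it marked 0.0379% of all cells. The libraries shared between 16 and 53 barcodes a pair among kept cells, and no shared barcode was epithelial in both libraries.

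The genes of the rule chose the cells, and their levels are given as a description. Epcam, an epithelial adhesion molecule, was at 1269 CPM (1221 to 1319) at P1, 1881 CPM (1818 to 1946) at P7 and 1618 CPM (1402 to 1857) at P14. Epyc, a small proteoglycan of the extracellular matrix, was at 1183 CPM (1137 to 1231), 3122 CPM (3041 to 3205) and 14703 CPM (14036 to 15393), and at P14 it came from 12 of the 32 cells. Tectb, a tectorin of the tectorial membrane, was at 432 CPM (404 to 461) and 1437 CPM (1382 to 1493), and at P14 a single UMI was found. Tecta, the other tectorin, stood at 638, 653 and 201 CPM, and Otoa, the otoancorin of the membrane's attachment, at 108, 176 and 56.3 CPM. Krt18 was at 296, 257 and 217 CPM, Cdh1 at 59.3, 109 and 225 CPM and the splicing regulator Esrp1 at 47.2, 29.96 and 56.3 CPM. Just inside the threshold, the lowest epithelial cell held 16.0, 15.1 and 16.7 UMIs of these genes per 10000 at P1, P7 and P14, and just outside it the highest cell that failed held 14.8, 14.2 and 14.3.

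Cldn9, a claudin of the tight junction, had no part in the rule and marked the same cells. It was at 365 CPM (339 to 392) at P1, 744 CPM (705 to 785) at P7 and 604 CPM (475 to 757) at P14 in epithelial cells and at 2.38, 2.10 and 4.17 CPM in all other cells. After each cell was thinned to 1000 UMIs, Cldn9 was found in 27.9%, 44.1% and 46.7% of epithelial cells and in 0.136%, 0.246% and 0.199% of the others. Without thinning it was found in 179, 159 and 21 epithelial cells. The thinning left out 2, 9 and 2 epithelial cells.

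Outside the rule, 15 genes led the epithelial cells over the other cells of the same library. They were chosen by their mean log2 ratio at P1 and P7, so the ratios describe the choice. Mia, a secreted protein first known from melanoma and cartilage, was at 3053 CPM (2978 to 3129.5) at P1, 3857 CPM (3767 to 3948) at P7 and 1867 CPM (1634 to 2123) at P14, against 46.3, 62.2 and 19.6 CPM elsewhere. It was found in 210 of the 224 cells at P1, 178 of the 195 at P7 and 14 of the 32 at P14. Fbxo2, a ubiquitin ligase subunit that binds glycoproteins, was at 3495 CPM (3414 to 3576), 3334 CPM (3249.8 to 3419) and 3452 CPM (3133 to 3795), with log2 differences of -0.07 from P1 to P7 and 0.05 from P7 to P14.

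Of the other leading genes, 5 belong to junctions or to the epithelial cell interior. Cldn3 was at 247, 196 and 209 CPM and below 1 CPM in other cells at each stage. Cldn8 was at 124 CPM (109.7 to 141) at P1, 304 CPM (279 to 331) at P7 and 700.1 CPM (561 to 864) at P14, and its intervals did not overlap between stages. Rab25, a small GTPase of epithelial membrane traffic, was at 187, 232 and 185 CPM, Krt8, a keratin of simple epithelia, at 219, 189 and 121 CPM, and Mpzl2, an adhesion protein of the immunoglobulin family, at 279.6, 322 and 668 CPM. These 5 genes were thus present at all 3 stages, and of them Cldn8 and Mpzl2 were highest at P14.

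The secreted or enzymatic members of the leading genes varied more. Wfdc2, a protein with a protease inhibitor fold, was at 732, 900.4 and 1191 CPM and Gpx2, an epithelial glutathione peroxidase, at 364, 338 and 177 CPM. Ucma, a matrix protein also known from cartilage, was at 126 CPM (111 to 142), 861 CPM (819 to 905) and 1167 CPM (985 to 1373). Smoc2, a matrix protein that binds calcium, was at 767 CPM (729.5 to 806), 495 CPM (463 to 529) and 96.6 CPM (49.9 to 169), in the opposite order of stages to Ucma. Of the 12 UMIs of Smoc2 at P14, 11 came from 1 cell, and without that cell the level was 8.96 CPM. Agr3, a disulfide isomerase of secretory epithelia, was at 321 and 421 CPM and held 2 UMIs at P14. Tspan8, a tetraspanin, was at 574, 525 and 346 CPM, and the transcription factor Gata3 at 522, 498 and 475 CPM, within counting error at all 3 stages.

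**Figure D1:**
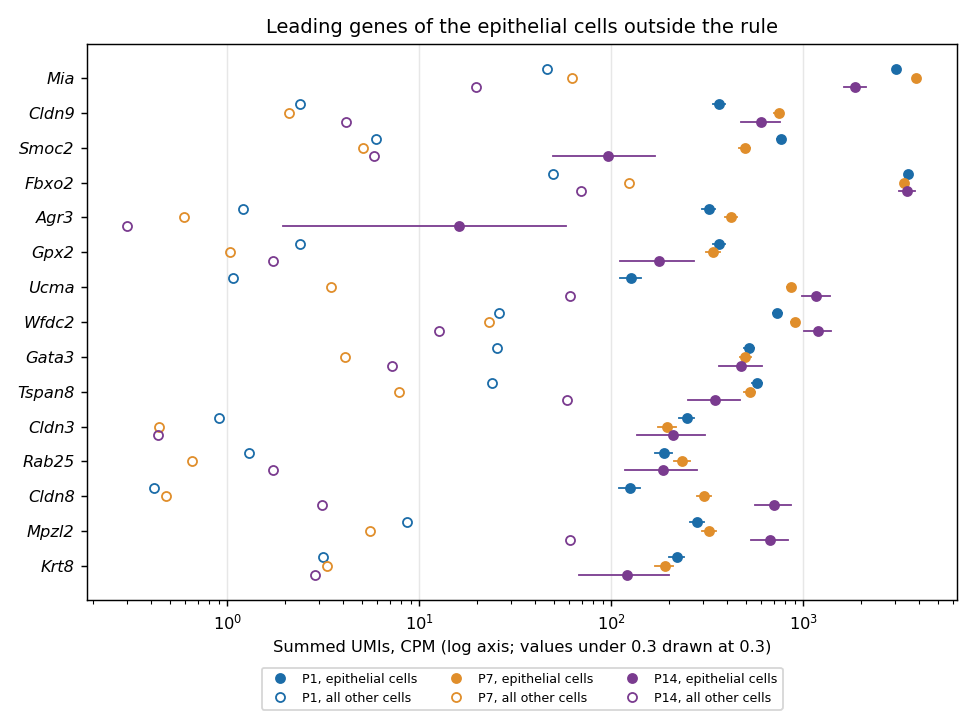
Summed level in CPM (log axis) of the 15 leading genes outside the rule, by stage; filled points are epithelial cells with exact 95% Poisson intervals and open points are all other cells of the same library (values under 0.3 are drawn at 0.3). Every filled point lies to the right of the open point of its gene and stage, and the intervals are widest at P14, where 32 cells were summed.

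Start regions of these genes were read for short motifs, since these genes share their place in the epithelium. RefSeq (GRCr8) start regions, 250 bases before and 50 bases after the first base of the transcript, were matched by symbol for 12 of the 15 leading genes and for 5 of the 8 rule genes. The coordinates are those of GRCr8, while the counts were made on rn6. CAGGTG, an E-box read on both strands (CACCTG on the other), was present in 7 of the 12 leading genes (Mia, Agr3, Gpx2, Wfdc2, Cldn3, Rab25 and Krt8) and, of the rule genes, in Epcam, while 18.8% of the 33469 start regions of the table hold it. Of the other motifs read on both strands, CANNTG, which includes CAGGTG, was present in 11 of the 12 and in 72.1% of all start regions, AACCNGTT in 1 (Rab25) and 2.10%, AGATAA in 1 and 11.6%, ACAAAG in 2 and 18.8%, and TATAAA in 2 and 14.2%. A match is a run of letters and was not tested as a binding site. For Epcam, Cldn3 and Rab25 the 250 bases before the start are shown 5′ to 3′, as examples of an adhesion, a junction and a traffic gene, with each CAGGTG or CACCTG in capitals. They lie on the minus strand at chr6:12649679-12649928, chr12:27346548-27346797 and chr2:176304222-176304471, and the motif begins 165 bases before the start in Epcam, 248 before it in Cldn3, and 39 and 28 before it in Rab25.
Epcam: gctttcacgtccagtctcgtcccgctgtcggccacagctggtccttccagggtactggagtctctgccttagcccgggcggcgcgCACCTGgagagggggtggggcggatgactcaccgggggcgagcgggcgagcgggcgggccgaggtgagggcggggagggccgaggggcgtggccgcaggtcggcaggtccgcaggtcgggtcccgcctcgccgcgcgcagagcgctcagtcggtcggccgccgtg
Cldn3: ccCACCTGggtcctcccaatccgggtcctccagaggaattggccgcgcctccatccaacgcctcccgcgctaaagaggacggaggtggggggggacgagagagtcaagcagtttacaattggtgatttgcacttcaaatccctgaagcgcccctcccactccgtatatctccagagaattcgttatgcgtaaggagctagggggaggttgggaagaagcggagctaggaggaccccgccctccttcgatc
Rab25: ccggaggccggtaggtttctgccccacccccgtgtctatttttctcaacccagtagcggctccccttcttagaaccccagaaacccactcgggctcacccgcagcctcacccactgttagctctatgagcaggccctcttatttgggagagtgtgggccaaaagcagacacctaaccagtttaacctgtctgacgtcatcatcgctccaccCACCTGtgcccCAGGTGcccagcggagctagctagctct

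Junction genes as a list described the same cells. Of the 27 junction genes outside the rule, those with at least 10 CPM on average in the 2 groups compared were counted, and a gene was called past 2-fold on the log2(CPM + 10) scale. Against all other cells, 13 of 16 were higher and 1 lower at P1, 16 of 21 higher and 0 lower at P7, and 14 of 19 higher and 4 lower at P14. Over all genes compared, 5.94% were higher and 7.8% lower at P1, 7.22% and 6.11% at P7, and 11.4% and 18.1% at P14. The rule used this contrast, so nothing is read from these counts. The median log2 ratio of the list was 2.05 at P1, 2.22 at P7 and 2.34 at P14, against -0.04, -0.03 and -0.10 over all genes. Of 16 keratin and epithelial regulator genes outside the rule, 8 of 8, 6 of 6 and 9 of 9 that reached the level were higher, and 0 were lower.

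Single members of these lists filled in the range. Cldn7 was at 135, 123 and 241 CPM and Cldn4 at 116, 121 and 72.4 CPM, both below 2 CPM in other cells. F11r, a junctional adhesion molecule, was at 121, 211 and 258 CPM. Crb3, a polarity protein, was at 31.6 CPM (24.4 to 40.3), 53.8 CPM (43.6 to 65.6) and 145 CPM (85.8 to 229), and Ildr1, a protein of tricellular junctions, at 19.0 CPM (13.5 to 25.9), 48.8 CPM (39.2 to 60.1) and 72.4 CPM (33.1 to 137). For both genes the intervals of P1 and P7 did not overlap. The serine protease Prss8 was at 37.4, 105 and 177 CPM, while its inhibitors Spint1 (98.2, 119 and 105 CPM) and Spint2 (1272, 2155 and 1689.96 CPM) had no such order of stages. Cldn11, a claudin of basal cells of the stria vascularis, was below the other cells, with 16.0, 46.6 and 258 CPM against 67.5, 68.4 and 1318 CPM.

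Transcription factors of the otic lineage were read from 22 genes. Against all other cells, 7 of 12 were higher and 2 lower at P1, 6 of 13 higher and 2 lower at P7, and 6 of 12 higher and 3 lower at P14. Over all genes 5.94%, 7.22% and 11.4% were higher and 7.8%, 6.11% and 18.1% lower. Gata3, Gata2 and Isl1 were past 2-fold higher at all 3 stages. Isl1, a LIM homeodomain factor, was at 164, 145 and 96.6 CPM against 31.1, 1.90 and 5.30 CPM in other cells. Sox9 was at 178, 247 and 515 CPM and Sox10 at 60.8, 148 and 169 CPM, and other cells held both (92.7 CPM of Sox10 at P7). Lmx1a was at 12.6, 23.3 and 56.3 CPM and at no more than 1.39 CPM elsewhere.

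Markers of other cell types were counted in the epithelial cells, since ambient RNA and doublets can carry them. The 6 fibroblast genes were all found and summed to 284 CPM at P1, 1249 at P7 and 1207 at P14, against 1645, 3594 and 6256 in other cells. The otic mesenchyme and fibrocyte list (6 of 6 genes found at P1 and P7, and 5 at P14 with Pou3f4 at 0) summed to 1053, 1830.2 and 467 CPM against 9852, 10130.2 and 8272. The glia list (5 of 5 found at P1 and P7, and 4 at P14 with Fabp7 at 0) summed to 437, 1331 and 2149 CPM against 618, 3749.8 and 6114. These lists were below the other cells but above 0, and their part in the results was not tested. Macrophage genes summed to 1.46, 16.6 and 24.1 CPM against 227, 159 and 223, and all 4 neutrophil genes were at 0 in epithelial cells at P7 and P14. Of the lists of cell types outside the epithelium, 3 were above the other cells at 2 or more stages. The cartilage list (5 of 5 genes found at P1, 4 at P7 with Matn1 at 0, and 2 at P14 with Acan, Matn1 and Cytl1 at 0) summed to 2148, 2099.8 and 2929 CPM against 486, 969 and 373. Most of that sum was Cnmd, the chondromodulin of cartilage, at 1827, 1801 and 2591 CPM, while Col2a1, the chain of type II collagen, was at 314, 287 and 338 CPM against 339, 576 and 287. The melanocyte list (1, 2 and 1 of 4 genes found, with Tyr and Mlana at 0 at each stage) summed to 22.4, 47.7 and 16.1 CPM against 14.0, 16.0 and 7.81. The T and NK cell list (2 of 3 genes found, with Nkg7 at 0 at P1 and P7 and Cd3e at 0 at P14) summed to 12.6, 21.1 and 40.2 CPM against 0.771, 0.559 and 59.9, and was above the other cells at P1 and P7. The part of these 3 lists in the results was not tested.

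The label greater epithelial ridge was set against 7 genes of that structure, of which the rule used Tectb, Epyc and Tecta. The others, Calb1 (167, 139 and 8.05 CPM), Fgf10, Crabp1 and Fst, were present unevenly, and Fgf10 and Crabp1 were at 0 at P14. Otor, a secreted protein made by cochlear fibrocytes and among the genes by which the study describes its ridge clusters, stood the other way. It was at 605 CPM (572 to 640.04) in epithelial cells and 6218 CPM in all others at P1, at 1085 CPM (1038 to 1134) and 6785 CPM at P7, and at 1 UMI and 411 CPM at P14. In thinned cells Otor was found in 21.2% of epithelial and 69.8% of other cells at P1, and in 38.7% and 68.1% at P7, and without thinning in 146 and 152 epithelial cells. Crym, which binds thyroid hormone in the cytosol, was below the other cells as well, with 374 CPM in epithelial and 2766 CPM in other cells at P1 and 513 and 2353 CPM at P7. Much of both sums lay in subcluster 6 of the clustering of these cells, which led with genes of mesenchyme. Without subclusters 6 and 9, a choice made after seeing the data, Otor was at 332 CPM (306 to 359) at P1 and 509 CPM (471 to 549) at P7, and Crym at 262 and 253 CPM.

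The 451 cells were clustered among themselves and fell into 10 subclusters, which are called here by their leading genes and given no cell type name. The leading genes formed the subclusters and are a description. The largest, with 66 cells (18 at P1, 30 at P7 and 18 at P14), led with Oc90, the main matrix protein of otoconia, at 70081 CPM against 36.3 CPM in the remaining epithelial cells. Crhbp, the binding protein of corticotropin-releasing hormone, was at 1541 CPM there, Rgr, an opsin-like receptor, at 818, Ttr, the carrier of thyroxine and retinol, at 1343, Krt15 at 1773 and Lrp2, the endocytic receptor megalin, at 1022 CPM. Epyc was at 6.19, Tectb at 12.4 and Gata3 at 31.0 CPM in the same cells. Tecta, at 329.8 CPM in 31 of the 66 cells, was above its level in subclusters 2 (65.1 CPM), 4 (30.2 CPM) and 8 (112 CPM), and Otog, an otogelin of the tectorial membrane, was at 139 and Otoa at 44.9 CPM. Of 10 genes of lateral wall and roof epithelium, 9 were found in it, counting a gene from 1 UMI on, as for Esrrb. Oc90 made up 70081 of the 70993 CPM to which the list summed. Subclusters 2 and 4 each held 6 of the 10 genes.

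Tectb, Tecta and Otoa belong to the rule, whose sum admitted the cells, so their spread over subclusters is a description. Subcluster 3 (56 cells at P1, 3 at P7) led with Moxd1, Fstl1, a secreted follistatin-like protein (5278 CPM), Sparcl1 (3586 CPM) and Calb1, a calcium buffer (502 CPM), and held Tecta at 2032 and Tectb at 1250.4 CPM. Subcluster 5 (4 cells at P1, 49 at P7) held Tectb at 4412, Tecta at 1741 and Epyc at 7425 CPM, and its cells were shallow, with a median of 1940 UMIs. Otoa in these was at 41.4 and 45.0 CPM. Subcluster 2 (59 cells, all at P1) held Otoa at 316, Smoc2 at 2289 and Igf1, a growth factor, at 6791 CPM with Tectb at 3.34 CPM. Subcluster 8 (1 cell at P1, 28 at P7 and 1 at P14) held Otoa at 670.4, Smoc2 at 2401, Ucma at 3503 and Cldn9 at 1276 CPM with Tectb at 23.6 CPM. Counted over single cells, 34 of the 451 cells held both Tectb and Otoa, 148 Tectb alone and 103 Otoa alone, whereas Otoa and Smoc2 were together in 83 cells, with Otoa alone in 54 and Smoc2 alone in 50.

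Subcluster 4 (44 cells at P1, 3 at P7 and 11 at P14) was the place of Fst and Bmp4. Fst, the follistatin that binds activins and bone morphogenetic proteins, was at 1193 CPM there, and in the other subclusters it was highest at 175 CPM, in subcluster 10. Bmp4, a ligand of the pathway, was at 907 CPM, Gata2 at 1489 and Gata3 at 1060.2 CPM. Over all epithelial cells both were found in 48, Fst alone in 13 and Bmp4 alone in 29. Epyc was at 4922 CPM in this subcluster and the tectorins were low (Tectb 8.06, Tecta 30.2 CPM).

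Supporting cell genes were at high levels in subcluster 7 (25 cells at P1, 19 at P7) and present elsewhere. Sox2, a factor of the prosensory domain, was at 725 CPM, the Notch ligand Jag1 at 502, the calcium-binding S100a1 at 2022, Prox1 at 86.5 and Fgfr3 at 24.7 CPM. After subcluster 7, Sox2 was highest in subcluster 9, which had genes of glia among its leading genes. Sox2 was also at 394 CPM in subcluster 5, in 36 of its 53 cells, at 378 in subcluster 10 and at 202 in subcluster 3. Jag1 was at 244 CPM in subcluster 5 and 163 in subcluster 3. S100a1 was at 754 CPM in subcluster 4. Outside subcluster 7, Prox1 was highest in subcluster 10, at 14.5 CPM, and Fgfr3 in subcluster 4, at 2.02 CPM. Subcluster 7 led with Grifin (349.98 CPM), Cep41, a tubulin-modifying ciliary protein (699.97 CPM), and Igfbp3, a binding protein of insulin-like growth factors (4793 CPM), and it held Tectb (1628 CPM) almost without Epyc (16.5 CPM). Of the 8 supporting cell markers 7 were found in subcluster 7, as in subcluster 4, and Hes5 was at 0, while the 10 leading genes of subcluster 7 held none of the 8 and held Pvalb, a gene of the hair cell list. Over all epithelial cells Sox2 and Tectb were together in 115 cells, with Sox2 alone in 45 and Tectb alone in 67.

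Genes of cell types outside the epithelium were among the leading genes of 4 subclusters, besides the hair cell gene Pvalb in subcluster 7. In subcluster 2 it was Tagln, an actin-binding protein of smooth muscle (354 CPM, in 32 of 59 cells, against 32.2 CPM in the remaining epithelial cells), and in subcluster 5 Lum, the lumican of fibroblasts (1148 CPM, in 28 of 53 cells, against 230.3 CPM). The part of such cells in these levels was not tested. Subcluster 6 (15 cells at P1, 29 at P7 and 1 at P14) led with Dcn (1683 CPM), Apod (2535 CPM) and other genes of mesenchyme, with Otor at 4481 and Tectb at 1689.7 CPM, and Scrublet marked 7 of its 45 cells. Subcluster 9 (2 cells at P1, 25 at P7 and 1 at P14) led with Pmch (10212 CPM, in 8 of its 28 cells) and with genes of glia such as Mbp, a myelin protein, and Scrublet marked 3 of its 28. Epcam was at 624 CPM in subcluster 6, the lowest of the 10, and at 1200.4 CPM in subcluster 9. The smallest subcluster, 10, was of 9 cells of P7 and led with Spink8, Egfl6 (1665 CPM) and Pnoc. It held Pmch at 11177, Mia at 12020.5 and Agr3 at 3141 CPM. Pmch was found in all 9 cells, unevenly, with 5 UMIs in the lowest cell and 899 in the highest.

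**Figure D2:**
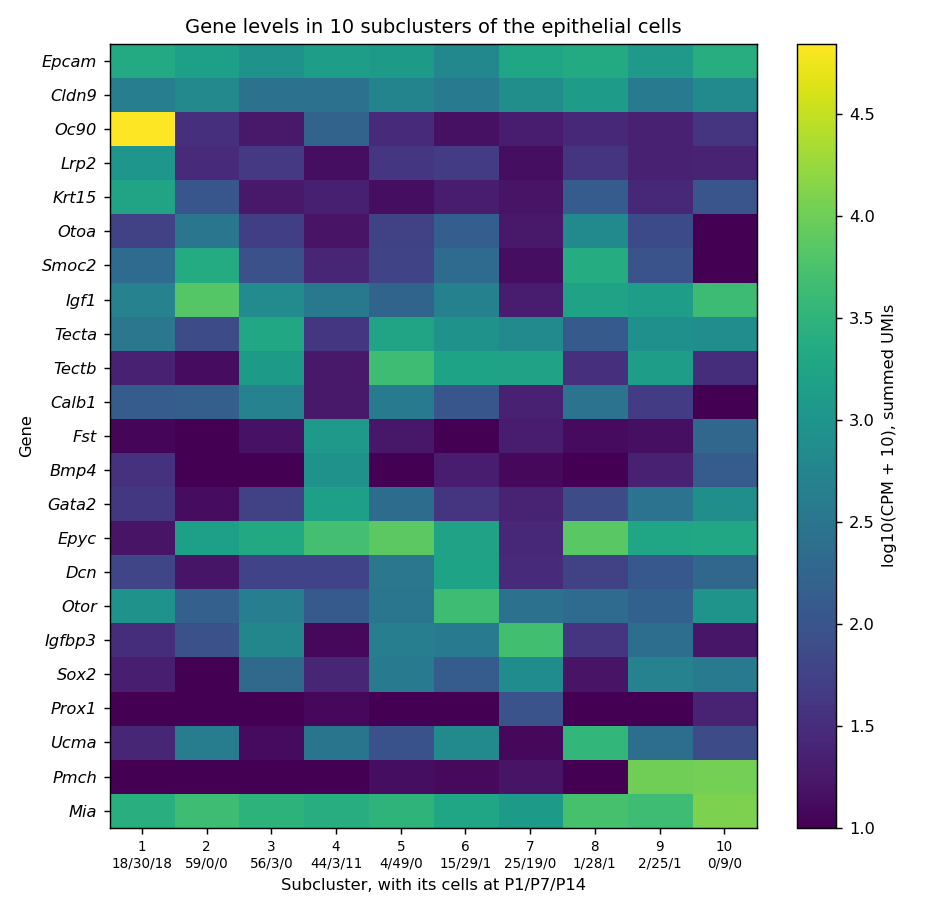
Level of named genes (rows, log10 of CPM + 10 from summed UMIs, colour) in the 10 subclusters of the 451 epithelial cells (columns, with their cells at P1, P7 and P14). Oc90 is brightest in subcluster 1, Fst and Bmp4 in subcluster 4, Otoa and Smoc2 in subclusters 2 and 8, and Sox2, Prox1 and Igfbp3 in subcluster 7. Cldn9 runs through all 10, and so does Epcam, which the rule required in every cell.

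A few cells carried much of several sums. Oc90 was found in 41 of the 224 cells at P1 and 49 of the 195 at P7, and the 22 cells richest in it at P1 held 99.9% of its UMIs. The 22 cells richest in Epcam at P1 held 29.3% of its UMIs, and the 22 richest in Fbxo2 held 29.9%. Pmch, the precursor of melanin-concentrating hormone, was in 22 cells at P7 with up to 1263 UMIs in 1 of them, and 20 cells held 99.9% of its UMIs.

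**Figure D3:**
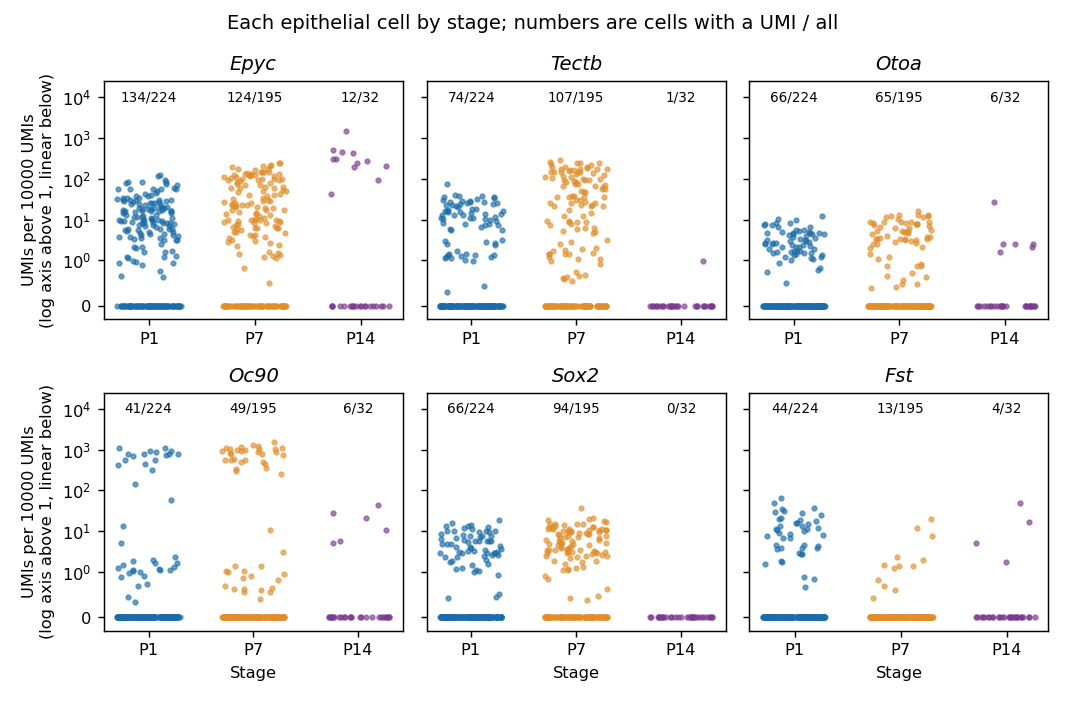
UMIs of 6 genes per 10000 UMIs of each epithelial cell (points, log axis above 1) at P1, P7 and P14, with the number of cells that hold a UMI over all cells. Oc90 at P1 and P7 is mostly above 100 or below 10, Epyc at P14 is above 10 in 12 cells and absent in the others, and Sox2 is absent in the 32 cells of P14.

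The share of kept cells that were epithelial was 1.75% (1.53 to 2.00) at P1, 1.55% (1.34 to 1.78) at P7 and 0.606% (0.415 to 0.854) at P14. The shares of P1 and P7 overlapped within counting error, and that of P14 lay below both, with a log2 ratio of -1.53 to P1 and -1.35 to P7. Median depth was lower at P14 too. With every cell thinned to 1000 UMIs before the rule was applied the shares were 0.942%, 1.04% and 0.308%, in the same position of P14. The share rests on all other cells captured as well as on the epithelium.

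Between P1 and P7 the epithelial cells of the libraries differed in 464 genes past 2-fold higher and 183 lower of 7501, which is 6.19% and 2.44%. In the other cells the same step gave 3.33% higher and 2.03% lower. The cells of P1 and P7 lay largely in different subclusters, with 59, 56 and 44 cells of P1 and 0, 3 and 3 of P7 in subclusters 2, 3 and 4, and 4 and 1 of P1 against 49 and 28 of P7 in subclusters 5 and 8. Clustering was made without a correction for library, and kind of cell, stage and library cannot be told apart in this split. Subclusters 2 and 8 both held Otoa with less Tectb, and subclusters 3 and 5 both held Tectb and Tecta with less Otoa. Among the genes with at least 100 CPM in either stage, Pmch rose most, from 0 UMIs at P1 to 2186 CPM (2119 to 2256) at P7, at least 1499-fold on the floor of 3 UMIs. Tmprss9, a membrane serine protease, went from 5.35 to 185 CPM (log2 difference 3.67), in 59 cells, Gal3st3, a sulfotransferase, from 4.86 to 139 CPM (3.32), and Qpct, an enzyme that modifies peptide ends, from 12.6 to 170.3 CPM (2.99). In other cells these 3 genes differed by 0.08, 0.59 and 0.96. Crhbp went from 31.1 to 381 CPM and on to 1972 CPM at P14. Mansc4 (3.21) and Kazald1 (3.17) were also among the 10 highest, together with LOC689064, Otos and Dcn. The last 3 were higher in other cells than in epithelial cells at each stage, and without the 73 cells of subclusters 6 and 9 the log2 difference of Otos fell from 3.26 to 1.11 and that of Dcn from 2.91 to 1.99.

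Genes of subcluster 4 were among the 10 that fell most from P1 to P7. Fst went from 269 CPM (247 to 292) to 17.8 CPM (12.1 to 25.1) and Bmp4 from 195 CPM (176 to 215) to 33.8 CPM (25.9 to 43.5). Lyve1, a receptor of hyaluronan, went from 199 to 8.88 CPM and Agr2, a relative of Agr3, from 278 to 35.5 CPM, and Nebl, an actin-binding protein, was also among the 10 lowest (146 to 26.6 CPM). In other cells Fst and Bmp4 differed by -0.13 and 0.49 on the log2 scale. Before thinning Fst was found in 44, 13 and 4 cells at P1, P7 and P14, and Bmp4 in 43, 24 and 10. In thinned cells Fst was found in 8.56% at P1, 1.61% at P7 and 6.67% at P14, against 1.14%, 0.877% and 1.71% of other cells, and Bmp4 in 9.91%, 1.61% and 23.3%, against 0.727%, 1.30% and 1.46%. Both genes were found together in 38 cells at P1, 7 at P7 and 3 at P14. Immediate early genes were also among the 10, with Fos (-1.92), Fosb (-2.23), Jun (-2.26) and Egr1 (-2.61), and with the histone gene Hist1h1e (-2.54). Of the 13 stress and immediate early genes 8 were lower and 1, Hspa1b, higher, beside 2.44% lower and 6.19% higher over all genes. In all other cells 2 of 13, Fos and Egr1, were lower and Hspa1b higher, beside 2.03% and 3.33%, and Jun and Fosb differed there by -0.85 and -0.85. These genes are known to respond to tissue dissociation, and its part in the differences was not tested.

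Lists of signalling genes were counted in the same way, beside the 6.19% higher and 2.44% lower of all genes. Of 19 FGF and BMP genes, 0 were higher and 4 lower at P7 than at P1 (Bmp4, Fst, Fstl1 and Id1), with a list median of -0.47 against 0.12 over all genes. Id1, a target of BMP signals, was at 897 CPM (856 to 939) and 418 CPM (389 to 449), and Id2 at 247 and 121 CPM. Of 14 endolymph transport genes, 6 were higher and 0 lower at P7, and in the other cells 1 of 6 was higher. Among the 6 were Atp1b1, a beta subunit of the sodium pump, from 172 CPM (155 to 191) to 437 CPM (407 to 469), and the potassium channel Kcnj16, from 5.84 to 55.5 CPM. Of 22 junction genes 5 were higher and 0 lower (Cldn8, Cldn9, Cldn11, Cldn14 and Ildr1). Of 13 genes of ATP signalling and connexins 3 were higher and 0 lower, led by P2rx2, an ATP-gated channel, which went from 69.5 CPM (58.6 to 81.9) to 269.6 CPM (246 to 295) and reached 797 CPM (648 to 969.95) at P14.

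Supporting cell and Notch genes were counted between the first stages against the 6.19% higher and 2.44% lower of all genes. Of 8 supporting cell genes, 2 (Jag1 and S100a1) were higher and 0 lower at P7. Jag1 was at 76.8 CPM (65.3 to 89.8) and 183 CPM (163 to 203), and S100a1 at 266 CPM (245 to 289.8) and 644 CPM (608 to 682). Of 9 Notch pathway genes 2, Jag1 and Heyl, were higher and 0 lower, and the receptor Notch1 was at 172 and 167 CPM. Summed over stages, Lgr5, Hes5 and Fgf20 were near or at 0 in all subclusters compared, with Lgr5 at most at 8.51 CPM. At P14 alone, Lgr5 was at 43.5 CPM (5.26 to 157) in subcluster 4, from 2 cells.

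From P7 to P14 the differences were wider, with 1045 genes (13.4%) higher and 1032 (13.2%) lower of 7810, against 11.2% and 4.95% in the other cells. Over the whole span from P1 to P14, 1528 of 7611 genes (20.1%) were higher and 1038 (13.6%) lower in epithelial cells, against 15.2% and 5.58% in the others. The 32 cells of P14 held 18 of the Oc90 subcluster and 11 of the Fst subcluster, and the remaining 3 fell 1 each in subclusters 6, 8 and 9, while 49 of the 195 cells of P7 were in subcluster 5. At P14 Oc90 itself was found in 6 of those 18 cells and Fst in 4 of those 11. Here too the kind of cell cannot be told apart from stage and library. Sox2 held no UMI at P14, at least 10.2-fold below its 247 CPM (225 to 271) at P7, and Igfbp3 none, at least 48.5-fold below its 1171 CPM (1122 to 1222). Tectb went from 1437 CPM to 1 UMI, and Oc90 from 17761 CPM (17567 to 17956) to 604 CPM (475 to 757). At P14, 56 of the 75 UMIs of Oc90 came from 1 cell of 12717 UMIs, and without it the level was 170.3 CPM. Pmch, Ramp3, a receptor subunit, Tubb2b, a tubulin, and Basp1 held no UMI at P14, at least 90.6-fold, 12.4-fold, 11.1-fold and 8.36-fold below P7. In other cells Pmch, Ramp3, Tubb2b and Basp1 differed by -2.32, -1.09, -2.45 and -2.63 on the log2 scale. Sox2, Igfbp3, Tectb and Oc90 differed there by -1.36, -1.22, -1.55 and -1.58. Of 7 supporting cell genes 4 were lower (Sox2, Hey2, Jag1 and Slc1a3) and 1, S100a1, was higher.

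The 10 genes highest at P14 against P7 included genes of ion transport and of matrix. Spp1, the secreted phosphoprotein osteopontin, was at 52.7 CPM (42.6 to 64.4) at P7 and 10172 CPM (9619 to 10749) at P14, and 3 cells held 74.7% of the UMIs at P14. Other cells held 1084 CPM of it at P14. Dnase1 went from no UMI to 1803 CPM (1574 to 2055), at least 1083-fold, and Kcne1, the beta subunit of the potassium channel of endolymph secretion, from 1.11 CPM (0.134 to 4.01) to 435 CPM (326 to 567), in 7 cells. Atp1b2, another beta subunit of the sodium pump, went from 78.2 CPM (65.8 to 92.3) to 2567 CPM (2293 to 2865), in 21 cells. Hhatl went from 29.96 to 1006 CPM, in 24 cells, and the laminin subunit Lamb3 from 7.21 to 378 CPM, in 8. With at least 5 UMIs and 30 per 10000 required by the rule, the log2 difference of Lamb3 was 0.51 in place of 4.50, below 2-fold. Ceacam16, a protein of the tectorial membrane, was at 6.66 CPM (3.44 to 11.6) at P7 and 781 CPM (633 to 952) at P14. Of the 97 UMIs of P14, 86 came from 1 cell with 742 UMIs of all genes, and without that cell the level at P14 was 89.1 CPM. Enpep, an aminopeptidase (5.29), and LOC103694853 (4.96) were also among the 10 highest. In other cells the log2 differences were 3.06 for Dnase1, 2.98 for Atp1b2, 2.83 for Hhatl and 1.70 for Kcne1. They were 1.24 for Lamb3, 1.24 for Enpep, 0.36 for Ceacam16 and 0.02 for LOC103694853. Coch, the cochlin of fibrocytes, rose from 3.88 to 346 CPM, and other cells rose from 61.1 to 5812 CPM.

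Of the 16 lists, endolymph transport genes had the highest median from P7 to P14. Of 17 that reached the level, 9 were higher than at P7 and 1, Kcne3, lower, with a list median of 1.36 against 0.03 over all genes, of which 13.4% were higher and 13.2% lower. In the other cells 4 of 8 were higher (Kcne1, Slc4a11, Atp1b2 and Atp1b3) and 0 lower, with a median of 1.31 against 0.10 over all genes, of which 11.2% were higher and 4.95% lower. Against the other cells of P14, 12 of 16 were higher and 2 lower, beside 11.4% and 18.1% over all genes. Slc12a2, the cotransporter of sodium, potassium and chloride, was counted in the ATP and connexin list and not in this one. It was at 202 CPM (183 to 223) at P1, 239 CPM (217 to 263) at P7 and 3243 CPM (2934 to 3576) at P14, and at 280.1 CPM in other cells at P14. Kcnq1, the partner of Kcne1, was at 72.4 CPM (33.1 to 137) at P14, from 4 cells, and Scnn1a, a sodium channel subunit, at 137 CPM (79.7 to 219), also from 4.

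Connexins were read from the same step. Of 13 genes of the ATP and connexin list, 7 were higher than at P7, Slc12a2 among them, and 1, P2ry1, lower, beside 13.4% and 13.2% over all genes. In the other cells 5 of 14 were higher, Gjb2, Gjb6 and Slc12a2 among them, and 1 lower, beside 11.2% and 4.95%. Gjb2 was at 165 CPM (148 to 183) at P1, 104 CPM (89.4 to 119.7) at P7 and 410.4 CPM (306 to 539.6) at P14, and Gjb6 at 25.8 CPM (19.3 to 33.7), 35.0 CPM (26.9 to 44.7) and 266 CPM (183 to 373). Other cells held 746 CPM of Gjb2 and 392 CPM of Gjb6 at P14. The sum in epithelial cells was thus below that of the other cells for both, and the part of ambient RNA in it was not tested. Of 9 matrix genes of the tectorial membrane list outside the rule, 3 were higher and 3 lower at P14 than at P7, where the same shares of all genes apply. Col9a2, a chain of type IX collagen, went from 1912 CPM (1849 to 1977) to 386 CPM (285 to 512) and Col9a1 from 1486 to 539 CPM, and both were lower in the other cells too, while Col11a1 went from 384 to 1191 CPM and Otogl, an otogelin-like protein, from 37.7 to 209 CPM.

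**Figure D4:**
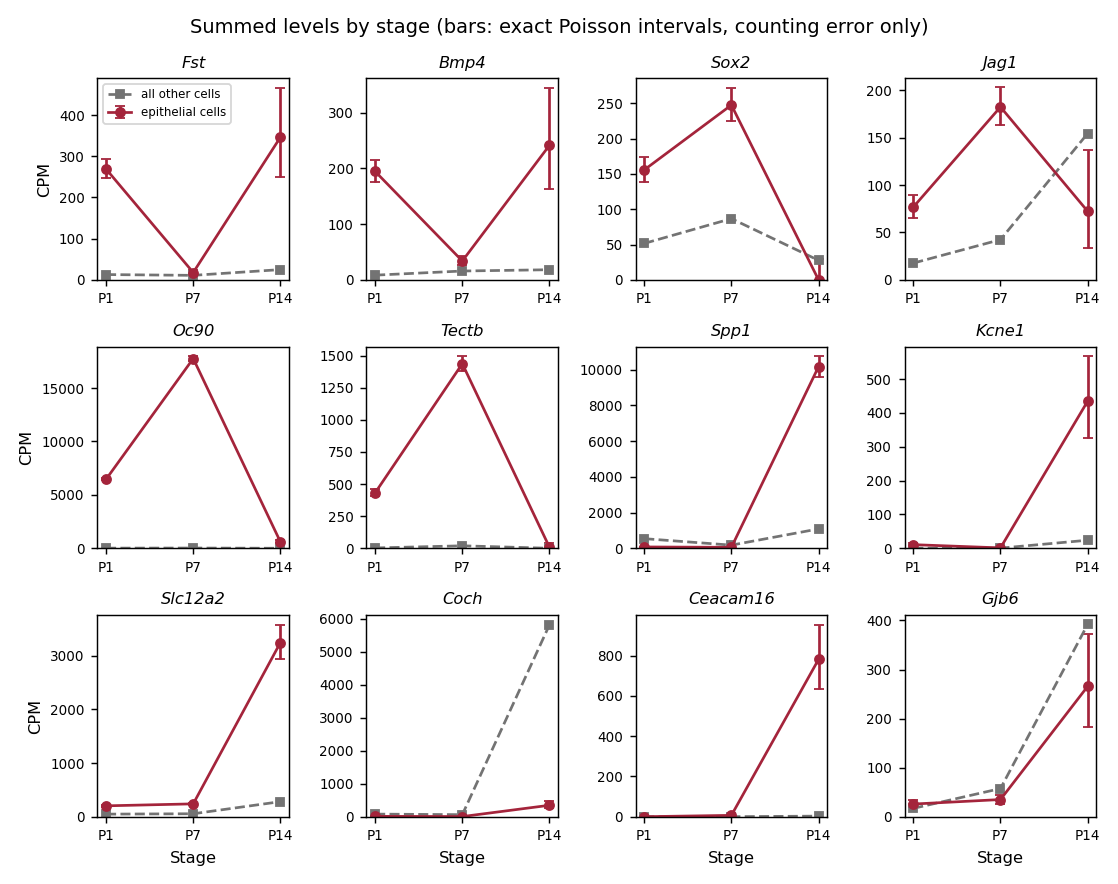
Summed level in CPM (linear axis, from 0) of 12 genes at P1, P7 and P14 in epithelial cells (circles, with exact 95% Poisson intervals) and in all other cells (squares). Fst and Bmp4 are lower at P7 than at P1 and P14, and subcluster 4 held 44, 3 and 11 cells at P1, P7 and P14. Sox2, Oc90 and Tectb are highest at P7. Spp1, Kcne1, Slc12a2 and Ceacam16 are above the other cells at P14, whereas Coch is below them. At P14, 1 cell holds 86 of the 97 UMIs of Ceacam16. For Fst at P14, 1 cell holds 23 of the 43 UMIs, and without it the level is 167 CPM.

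The stage differences were then read within single subclusters, which were made from these genes and did not hold all their cells under other settings. At a clustering resolution of 1.2, 74.2% of subcluster 1 and 74.1% of subcluster 4 stayed together, and with 20 components 79.5% of subcluster 7. The gene that names a subcluster was also not in all its cells of P14, with Oc90 in 18 of 18 cells at P1, 30 of 30 at P7 and 6 of 18 at P14. In the Oc90 subcluster Epcam was at 1811 CPM (1626 to 2011) at P1, 2588 CPM (2429 to 2755) at P7 and 1809 CPM (1515 to 2144) at P14, and Krt15 at 1268, 2127 and 1279 CPM. Oc90 was at 68245 CPM (67085 to 69419.6), 84414 CPM (83492 to 85344) and 1020.1 CPM (802 to 1279), or 312 CPM (188 to 488) at P14 without the cell richest in it. Slc12a2 in this subcluster was at 414 CPM (328 to 515), 169 CPM (130.04 to 216) and 5236 CPM (4726 to 5787), Atp1b2 at 129, 311 and 4229.97 CPM, and Spp1 at 424, 23.7 and 17002 CPM. At P1, 81 UMIs of Spp1 came from 1 cell of 11343 UMIs, and only 1 other cell of P1 in this subcluster held the gene. Kcne1 was at 104 CPM (63.2 to 159.9) at P1, all from 1 cell, held no UMI at P7 and was at 694 CPM (516 to 912) at P14. Ptgds, the prostaglandin D synthase, was at 2355, 3636 and 28685 CPM. Crhbp went from 331 through 1809.9 to 3332 CPM. Krt15 was found in 14 of the 18 cells of P1, 28 of the 30 of P7 and 8 of the 18 of P14.

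**Figure D5:**
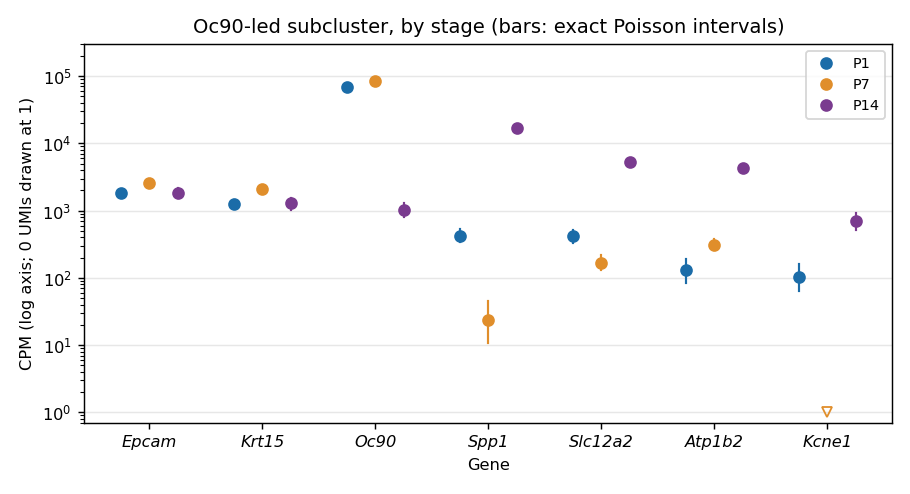
Summed level in CPM (log axis) of 7 genes in the 66 cells of the Oc90 subcluster at P1 (18 cells), P7 (30 cells) and P14 (18 cells), with exact 95% Poisson intervals; the open triangle marks 0 UMIs. The summed levels of Epcam and Krt15 each stay within 2-fold across stages, Oc90 is lower at P14, and Spp1, Slc12a2, Atp1b2 and Kcne1 are higher at P14. The rule required Epcam in every cell.

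In the Fst subcluster, 44 cells of P1 were set beside 11 of P14. Fst was at 1254 CPM (1150.5 to 1363), in 40 of the 44 cells, and 934 CPM (676 to 1258), in 4 of the 11 and with 23 of its 43 UMIs in 1 cell. Bmp4 was at 915 CPM (828 to 1009.9) and 587 CPM (387 to 854), and Gata3 at 1072 and 1065 CPM. Gata2 went from 1631 CPM (1513 to 1755) to 478 CPM (299.6 to 724) and Agr2 from 1166 to 21.7 CPM. Epyc went from 1348 CPM (1241 to 1462) to 39544 CPM (37748 to 41403) and was found in all 11 cells, S100a1 from 177 CPM (139.8 to 221) to 6344 CPM (5637 to 7115), and Ucma from 32.2 to 2977 CPM. Gjb2 went from 357 CPM (303 to 417) to 956 CPM (695 to 1283) and Gjb6 from 34.5 CPM (19.3 to 56.9) to 587 CPM (387 to 854). The high Epyc of the P14 library as a whole thus lay in this subcluster, and the Oc90 subcluster at P14 held none.

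In the Sox2-bearing subcluster 7, 25 cells of P1 were set beside 19 of P7. Sox2 was at 825 CPM (714 to 948) and 627 CPM (532 to 734), Prox1 at 104 CPM (67.4 to 154) and 69.2 CPM (40.3 to 111), and Hey2, a Notch target, at 112 and 81.4 CPM, and for each of these 3 genes the intervals of both stages overlapped. Jag1 went from 279 CPM (216 to 354) to 720.5 CPM (618 to 835), S100a1 from 1375 CPM (1230.3 to 1531) to 2654 CPM (2454 to 2866) and Cldn9 from 367 CPM (294 to 452) to 1176 CPM (1045 to 1320.1). Cep41 went from 337 to 1054 CPM, Grifin from 79.1 to 615 CPM and Igfbp3 from 1995 CPM (1821 to 2182), in 23 of 25 cells, to 7526 CPM (7187 to 7877), in 13 of 19. Notch1 was at 342 CPM (272 to 424) and 204 CPM (151 to 268).

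Hair cell genes were read with the limit of the rule in mind, which keeps out cells with more than 2 of its 5 hair cell genes. Of these, Pou4f3, Slc17a8 and Myo7a were at 0 UMIs at all 3 stages. Among hair cell genes outside the rule, 2 of 6 were higher than in other cells at P1 (Cib2 and Espn) and 2 lower, 3 of 6 higher at P7 (Cib2, Pvalb and Espn) and 1 lower, and 0 of 4 higher at P14 and 1 lower. Over all genes the shares were 5.94% and 7.8%, 7.22% and 6.11%, and 11.4% and 18.1%. The hair cell marker list of 11 genes summed to 263, 209 and 96.6 CPM against 301, 127 and 149.9 in other cells. This list includes the 5 hair cell genes of the rule, so the contrast is partly set by the rule. The other cells of P1 include 19 cells with at least 3 of these 5 genes, which held 766 of the 4038 UMIs of Cib2 there. Cib2, a calcium-binding protein of mechanotransduction and a gene the study names for its clusters, had no part in the rule and was at 167 CPM (149.6 to 185), 93.8 CPM (80.2 to 109) and 16.1 CPM (1.95 to 58.1), against 42.1, 20.005 and 6.43 CPM in other cells. It was highest in subcluster 2, at 364 CPM, and lowest in subcluster 4, at 14.1 CPM. Myo6, a motor of the stereocilia that other tissues also use, was at 66.6, 68.2 and 80.5 CPM against 127, 89.7 and 105 CPM, and Espn, an actin-bundling protein, at 80.2 CPM (68.5 to 93.5), 21.6 CPM (15.4 to 29.6) and 8.05 CPM (0.204 to 44.8) against 12.6, 1.92 and 8.42 CPM.

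Of the cell cycle genes, 10 of 15 were lower than in other cells and 0 higher at P1, 11 of 17 and 0 at P7, and 12 of 17 and 0 at P14, among them Mki67, Top2a, Cdk1 and Birc5 at each stage. Over all genes 7.8%, 6.11% and 18.1% were lower and 5.94%, 7.22% and 11.4% higher. The inhibitor Cdkn1b was at 241, 186 and 185 CPM in epithelial cells and 133, 105 and 192 CPM in other cells. Of the genes of cell death and autophagy, 1 of 25, 0 of 27 and 1 of 25 were higher than in other cells and 0, 0 and 1 lower, where those same shares of all genes apply. Between P1 and P7, 1 of 27 of them, the protease Ctsl, was higher, from 244 CPM (223 to 266) to 535 CPM (502 to 570.2), and 0 were lower (6.19% and 2.44% over all genes). From P7 to P14, 0 of 27 were higher and 4 lower (Bax, Bcl2, Atg5 and Lamp2), beside 13.4% and 13.2% over all genes. Of the cell cycle genes, 3 of 10 were higher at P7 than at P1 (Cdk1, Ube2c and Nusap1) and 0 lower, beside 6.19% and 2.44%. In the other cells 2 of 17 were higher (Cdk1 and Ube2c) and 0 lower, beside 3.33% and 2.03%. From P7 to P14, 0 of 9 cell cycle genes were higher and 2 lower (Cdk1 and Ube2c), beside 13.4% and 13.2%.

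Wnt, thyroid and basement membrane genes each had members higher and members lower than in other cells at each stage. Sfrp1, a secreted Wnt inhibitor, was at 1978 CPM (1918 to 2040.03), 976 CPM (931 to 1023) and 724 CPM (582 to 890.3) against 196, 145 and 34.7 CPM in other cells. The ligand Wnt7a was at 52.0 and 30.5 CPM and below 1 CPM in other cells, and Wnt4 at 28.7 CPM (21.8 to 37.0) and 84.3 CPM (71.5 to 98.8). Of the Wnt list 6 of 18, 5 of 18 and 3 of 14 genes were higher than in other cells and 3, 1 and 6 lower, beside 5.94%, 7.22% and 11.4% higher and 7.8%, 6.11% and 18.1% lower over all genes. Of the thyroid and retinoid list, 5 of 15, 3 of 14 and 3 of 13 genes were higher and 4, 3 and 3 lower, beside the same shares. Crym and Rarb were lower at each stage. Of the basement membrane list, 2 of 13, 4 of 15 and 2 of 16 were higher and 4, 4 and 6 lower, beside these shares too. Thrb, a thyroid hormone receptor, was at 132 CPM (117 to 148), 181 CPM (162 to 202) and 64.4 CPM (27.8 to 127) against 14.7, 36.8 and 45.2 CPM. Cyp26b1, which breaks down retinoic acid, was at 85.1 and 59.9 CPM and without a UMI at P14. Of the basement membrane genes Lama5 was at 69.1, 77.1 and 32.2 CPM, above the 2.75 and 5.35 CPM of other cells at P1 and P7, while Col4a1 and Nid1 were below other cells at each stage (Col4a1 at P7 134 against 449 CPM).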

How the data were processed

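Each stage was 1 library of pooled rat tissue, sequenced as droplet single-cell RNA. The deposited matrices hold UMI counts per gene and barcode, which the authors made with Cell Ranger (3.1.0 in the matrix header) on the rat build rn6. The study's number of cells that passed its filter equals the 34927 deposited barcodes, whereas the filter used here (500 to 5000 genes, over 500 UMIs and under 25% mitochondrial UMIs) left 30641. Its limits are those of the study's methods, which print the UMI limit as below 500, read here as a lower limit. Library totals were 114285848, 101264868 and 12616390 UMIs at P1, P7 and P14.

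UMIs were summed over cells and given as CPM. A gene was called past 2-fold after adding 10 CPM, among genes at 10 CPM or more. Subclusters came from scanpy 1.11.5 and leidenalg 0.10.2 (2000 variable genes without the genes of the rule, 10 components, 15 neighbours, resolution 0.8). Intervals used scipy 1.17.1. No model was fitted, and p-values were not computed.

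Named genes were those of the rule, members of the 16 lists, the 15 leading genes (at 50 CPM and in 25% of cells), the 10 highest and 10 lowest per pair of neighbouring stages at 100 CPM, Cib2, Mia and Otor, and leading genes of subclusters. The named genes Otor, Rgr, Ptgds and others of subclusters were added after their values were seen. Members, lists and rule were chosen with earlier results of these data known. Some genes are not reported here. The alternatives were other filters, rules, thinning, added CPM, level floors and cluster settings.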

Additional observations from a re-analysis of the deposited data

How the results depend on the processing

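No paired analysis was possible because each stage was 1 library. Of 770 log2 ratios of named genes over all alternatives run, 0 changed direction and 769 kept their side of 2-fold, and the exception was Lamb3 from P7 to P14, at 0.51 with 5 UMIs and 30 per 10000 required (the stricter sum). The 770 include the alternatives of the level floor, which act only on the counts of genes and could not move these ratios. The cause was not tested for any of the values that moved. The number of subclusters stayed within 1.5-fold in 3 of 3 settings (9 to 12), but cells did not always stay together. At resolution 1.2, 74.2% of subcluster 1, 74.1% of 4 and 58.5% of 5 stayed in 1 subcluster, and with 20 components 81.0% of 4, 56.6% of 5 and 79.5% of 7 did. The share of epithelial cells moved at P1 to 1.4998% with a 10% mitochondrial limit, 1.09% with the stricter sum and 0.942% with thinned cells, at P7 to 1.88% without the Epcam requirement, 1.30%, 1.04% and, without subclusters 6 and 9 (chosen after seeing the data), 1.12%, and at P14 to 0.360% and 0.308%.

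Counts of genes past 2-fold depended most on thinning and on the level floor, and 107 of 132 stayed within 1.5-fold. With thinned cells, P7 against P1 gave 1211 higher and 820 lower against 464 and 183, P14 against P1 2686 lower against 1038, and P14 against P7 1766 and 2963 against 1045 and 1032. Against other cells thinning gave 702 higher at P1, 870 lower at P7, and 1730 higher and 3509 lower at P14. With 1 CPM added, P7 against P1 gave 887 and 392, P14 against P7 1625 higher, and 725 were lower than in other cells at P7. At a floor of 50 CPM the counts were 190 and 86 (P7 to P1), 624 and 417 (P14 to P1) and 452 and 396 (P14 to P7), and against other cells 187 and 189 at P1, 245 and 192 at P7 and 447 and 436 at P14. The main counts against other cells were 445 and 584 at P1, 566 and 479 at P7 and 959 and 1523 at P14, and 1528 were higher at P14 than at P1. At P14 the 32 cells limit every value, since 3 UMIs already stand for 24.1 CPM.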

Other observations

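Cells just beside the epithelial cells were of 2 kinds. In 68 cells the 8 genes of the rule passed the sum but no UMI of Epcam was found (21 at P1, 42 at P7 and 5 at P14). They were shallow, with medians of 1873, 1344 and 1703 UMIs. The 42 cells of P7 held Mia at 1026 CPM (834 to 1250), Fbxo2 at 1182 CPM (975 to 1420), Cldn9 at 249 CPM (159 to 370.2) and Otor at 1679 CPM (1431 to 1959), so Mia, Fbxo2 and Cldn9 were lower and Otor higher than in the epithelial cells of P7.

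Another 19 cells, all of P1, held at least 3 of the 5 hair cell genes of the rule, and 1 of them passed the epithelial sum. Outside those genes they held Cib2 at 2321 CPM (2160 to 2492) and Myo6 at 1849 CPM (1705 to 2001), against 167 and 66.6 CPM in the epithelial cells of P1. Cldn9 was found in all 19, at 209 CPM (163 to 265), and Epcam in all 19, at 318 CPM (260.3 to 385). The 19 cells were deep, with a median of 16375 UMIs against 8145 in the epithelial cells of P1. Gata3 was at 303 CPM (247 to 369), while Mia was at 93.9 CPM (63.8 to 133) and Epyc at 0 UMIs. Fbxo2 was at 964 CPM. In the epithelial cells of P1, Cldn9 was at 365, Gata3 at 522, Mia at 3053 and Fbxo2 at 3495 CPM, so each of these was lower in the 19 cells. Epcam was at 1269 CPM in the epithelial cells of P1, but the rule required it there, so its difference is partly set by the choice of cells. At P7 and P14 no cell held 3 of the hair cell genes, and the cells that were not epithelial had medians of 6868 and 1610 UMIs there.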
